A study of Mus musculus with 8 samples.

Results

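A set of 10 transcripts of imprinted genes and of the H19 locus were followed through the mouse oral mucosa: H19, Igf2, Nctc1, Cdkn1c, Dlk1, Meg3, Rian, Mirg, Peg3 and Grb10. They were taken by gene symbol from the UMI tables, where all 10 had an entry among the 33549 entries with a count, and no entry of theirs named a second gene. The genes were chosen by name with earlier results of these data known, so measured values of these same samples played a part, and which ones is not recorded. The levels and fold changes below therefore describe these transcripts, and the adjusted p-values are those of the fit over all genes and support nothing about the choice.

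The tissue came from wild-type C57BL/6J mice, whose age and sex the labels do not give. Buccal mucosa (the inside of the cheek), dorsal tongue (its upper face), hard palate and ventral tongue (its underside) each gave 2 replicates, and no treatment or transgene was used. By tomo-seq each tissue block was cut into 20 serial sections of 14 µm, and the RNA of every section was barcoded and counted at its 3′ end with unique molecular identifiers (UMIs), so that levels can be read by section number. The labels leave unsaid whether the replicates came from different mice and which end of the block section 1 was. Each p-value therefore reflects only how far these samples differ, and that spread may be technical.

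Imprinted genes are expressed mainly from the allele of a single parent. On mouse chromosome 7 the noncoding RNA H19 is made from the maternal allele and the fetal growth factor gene Igf2 from the paternal allele, both under a shared control region and shared enhancers, and on chromosome 12 Dlk1 and Meg3 form a second such pair. H19 and Igf2 are abundant in fetal tissue and mostly decline after birth, with skeletal muscle known as a tissue that keeps H19. These counts do not separate the parental alleles, so nothing here bears on allelic expression.

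In the GRCm38 annotation (GENCODE M21) H19 lies on chromosome 7 at 142575529-142578143, minus strand, and is annotated as a lincRNA of 2.62 kb. Nctc1, a noncoding transcript next to the muscle enhancers of H19 and Igf2, lies 16.9 kb from it at 142544609-142558596, and Igf2 lies 72.6 kb on its other side at 142650766-142666816, both on the minus strand. Cdkn1c, the cell cycle inhibitor p57, lies 792 kb beyond Igf2 at 143458339-143461050. On chromosome 12, plus strand, Dlk1 (109452823-109463336) is followed by the noncoding RNAs Meg3 (109541001-109571726), Rian (109603940-109661716) and Mirg (109729764-109749460). Peg3 is on chromosome 7 at 6703892-6730431 and Grb10 on chromosome 11 at 11930508-12038683, both on the minus strand.

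H19 is also the host of a microRNA, whose hairpin lies inside it at chr7:142577064-142577147. Its mature forms in RefSeq (GRCm38.p6) are shown because they are the known small RNA product of the most abundant transcript of the set. Capitals mark the seed, bases 2 to 8, and the seeds of the arms differ.
mmu-miR-675-5p: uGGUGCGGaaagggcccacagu
mmu-miR-675-3p: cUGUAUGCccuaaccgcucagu
The hairpin's own entry, Mir675, held 0 to 11 UMIs per sample, against 1436 to 25131 for H19. It lies within the H19 gene, so its reads cannot be told apart from H19 RNA, and the counts say nothing of the mature microRNA.

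The promoter windows of Nctc1, whose level differed most between the sites, and of Meg3, which ran the other way, are shown from 250 bases before to 50 bases after the annotated start (RefSeq, GRCm38.p6). The first lies at chr7:142558549-142558848 on the minus strand, and the second, at the more upstream of the starts of Meg3, at chr12:109540746-109541045 on the plus strand. Capitals mark CANNTG, the general E-box, and TATAAA on either strand.
Nctc1: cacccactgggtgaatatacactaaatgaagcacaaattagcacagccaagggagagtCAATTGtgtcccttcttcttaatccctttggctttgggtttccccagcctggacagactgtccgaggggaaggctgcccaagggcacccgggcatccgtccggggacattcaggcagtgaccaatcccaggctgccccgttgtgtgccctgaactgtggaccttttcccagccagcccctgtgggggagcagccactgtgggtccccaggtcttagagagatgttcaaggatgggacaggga
Meg3: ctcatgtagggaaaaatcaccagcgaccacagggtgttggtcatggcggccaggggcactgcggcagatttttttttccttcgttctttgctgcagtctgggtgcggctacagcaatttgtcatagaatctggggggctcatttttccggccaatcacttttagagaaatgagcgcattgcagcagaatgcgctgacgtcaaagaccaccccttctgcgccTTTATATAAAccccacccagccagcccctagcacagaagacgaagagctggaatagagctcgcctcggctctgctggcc
The Nctc1 window held 1 CANNTG, which 72.3% of all 32851 promoter windows hold, and no CAGCTG, which 16.3% hold. The Meg3 window held TATAAA on both strands in overlapping copies starting 29 and 25 bases before the annotated start, and 13.6% of all windows hold it. Windows were listed for 8 of the 10 genes, 13 in all, and none of the 13 held CAGCTG. H19 and Cdkn1c had no window listed, so nothing is known here of theirs. These matches describe letters and not sites of binding.

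Sequencing gave 7830471 to 26376536 UMIs per sample. Buccal mucosa replicate 1 had 3 sections under 50000 UMIs (sections 4, 19 and 20), dorsal tongue replicate 1 had section 5 with 2523 and dorsal tongue replicate 2 had section 11 with 14671, so single values there rest on few molecules. Keratinocyte markers were present at every site, with a summed level of 11108 to 20970 CPM (UMIs scaled to the sample's total) in 7 samples. Buccal mucosa replicate 2 stood apart with 1085 CPM of keratinocyte, 8980 CPM of salivary gland and 4848 CPM of adipocyte markers, against at most 58.1 and 1063 CPM of the latter lists elsewhere. The list of 15 skeletal muscle genes summed to 243 to 635 CPM in hard palate and to 18436 to 55407 CPM in the other 6 samples. In these whole sections fewer cells of a type and less RNA per cell cannot be told apart.

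H19 had the most UMIs of the set in 7 of 8 samples and was low in hard palate. Its level was 1111 and 645 CPM in buccal mucosa replicates 1 and 2, 801 and 994 CPM in dorsal tongue, 1513 and 1224 CPM in ventral tongue and 80.9 and 82.2 CPM in hard palate. Ventral tongue was highest, buccal mucosa and dorsal tongue overlapped, and both hard palate samples lay under every other sample. On the log2 scale hard palate differed from the mean of the other 3 sites by -3.95 ± 0.44 (SE; edgeR quasi-likelihood test, Benjamini-Hochberg adjusted p = 0.00447). Without hard palate replicate 1 the adjusted p was 0.0713 and without replicate 2 it was 0.0514, at log2 values of -3.89 and -3.92.

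Nctc1 was close to absent from hard palate. It had 34.1 and 50.1 CPM in buccal mucosa, 27.3 and 19.1 CPM in dorsal tongue and 61.0 and 71.4 CPM in ventral tongue. In hard palate 2 and 8 UMIs were counted, or 0.113 CPM (95% exact Poisson interval 0.0137 to 0.407) and 0.303 CPM (0.131 to 0.598), intervals that cover counting error only. The order was ventral tongue, buccal mucosa, dorsal tongue, hard palate, with no overlap between neighbours. The fitted log2 difference of hard palate, -7.77 ± 0.51 (SE; edgeR adjusted p = 0.00279), depends on the prior count at such low numbers. It passed the threshold in all 14 alternative fits, with adjusted p from 9.35e-38 to 0.0270.

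Cdkn1c followed the same order of sites. It had 113 and 143 CPM in ventral tongue, 86.6 and 102 CPM in buccal mucosa, 52.5 and 41.9 CPM in dorsal tongue and 7.89 and 24.4 CPM in hard palate, and no neighbouring sites overlapped. Its log2 difference in hard palate was -2.65 ± 0.48 (SE; edgeR adjusted p = 0.0196). Leaving out dorsal tongue replicate 1 or 2, hard palate replicate 1, or ventral tongue replicate 1 or 2 gave adjusted p of 0.0647, 0.0638, 0.0685, 0.0603 and 0.0611, with log2 values from -2.00 to -2.65.

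Igf2, unlike H19, was not low in both hard palate replicates. Its level there was 35.2 CPM in replicate 1 and 90.5 CPM in replicate 2, the latter beside 91.4 and 91.3 CPM in buccal mucosa. It was 49.6 and 45.1 CPM in dorsal tongue and 70.0 and 68.1 CPM in ventral tongue. The hard palate replicates thus lay on either side of every tongue sample and both under buccal mucosa, and the site's log2 difference, -0.39 ± 0.35 (SE; edgeR adjusted p = 0.536), was 0.19 without replicate 1 and -1.18 without replicate 2. The UMIs of H19 per UMI of Igf2 were 2.30 and 0.908 in hard palate against 12.2 and 7.06 in buccal mucosa, 16.2 and 22.0 in dorsal tongue and 21.6 and 17.98 in ventral tongue. This is a ratio of 3′ end counts within a sample and needs no scaling to the sample's total. It is not free of depth, since UMI collisions lower the count of H19 more than that of Igf2. Estimated transcripts per UMI reached 1.27 for H19 and 1.03 for Igf2 in a sample. The gene model Gm49394 overlaps Igf2 on the same strand and held 9770 UMIs against 9768, equal in 156 of 160 sections, so the counts of Igf2 cannot be assigned to it alone.

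Dlk1, a membrane protein of the EGF-repeat family also known as preadipocyte factor, had its own order of sites. It was at 56.4 and 11.6 CPM in buccal mucosa, 25.6 and 28.5 CPM in ventral tongue, 6.14 and 9.67 CPM in hard palate and 4.19 and 3.35 CPM in dorsal tongue. The replicates of buccal mucosa differed widely, and the tongue faces did not overlap. Between dorsal and ventral tongue its log2 difference was -2.75 ± 0.69 (SE), which missed the threshold over all genes (edgeR adjusted p = 0.605), with adjusted p = 0.0258 and 0.0208 in the fits without buccal mucosa replicate 1 or 2, and 0.0161 by DESeq2.

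Meg3, the maternally expressed noncoding partner of Dlk1, was highest where H19 was lowest. It was at 58.2 and 68.2 CPM in hard palate, 38.8 and 42.4 CPM in buccal mucosa, 28.6 and 38.3 CPM in ventral tongue and 23.3 and 36.8 CPM in dorsal tongue. Both hard palate samples lay above the other 6, but the log2 difference of 0.58 ± 0.24 (SE) missed the threshold (edgeR adjusted p = 0.189). Rian, the host of small nucleolar RNAs, had 24 and 58 UMIs in hard palate and 5 to 16 in each other sample, with a log2 difference of 1.21 ± 0.46 (SE; edgeR adjusted p = 0.151). Mirg, the host of a microRNA cluster, had 11 to 169 UMIs per sample, and its sites overlapped.

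Peg3, a zinc finger protein of the paternal allele, was at 54.7 and 39.7 CPM in hard palate, 23.4 and 45.3 CPM in buccal mucosa, 23.8 and 18.7 CPM in ventral tongue and 20.9 and 10.4 CPM in dorsal tongue. Every pair of neighbouring sites in this order overlapped (log2 difference of hard palate 0.77 ± 0.36, SE; edgeR adjusted p = 0.232). Grb10, an adaptor that dampens insulin and IGF receptor signalling, was lowest in hard palate at 14.4 and 27.6 CPM, against 29.6 and 33.9 CPM in dorsal tongue, 52.7 and 64.0 CPM in ventral tongue and 36.8 and 88.5 CPM in buccal mucosa. Its log2 difference of -1.52 ± 0.43 (SE) missed the threshold (edgeR adjusted p = 0.0764), and it was called by DESeq2 (adjusted p = 0.0114) and in the edgeR fits without buccal mucosa replicate 1 or 2 (adjusted p = 0.00972 and 0.0299).

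**Figure D1:**
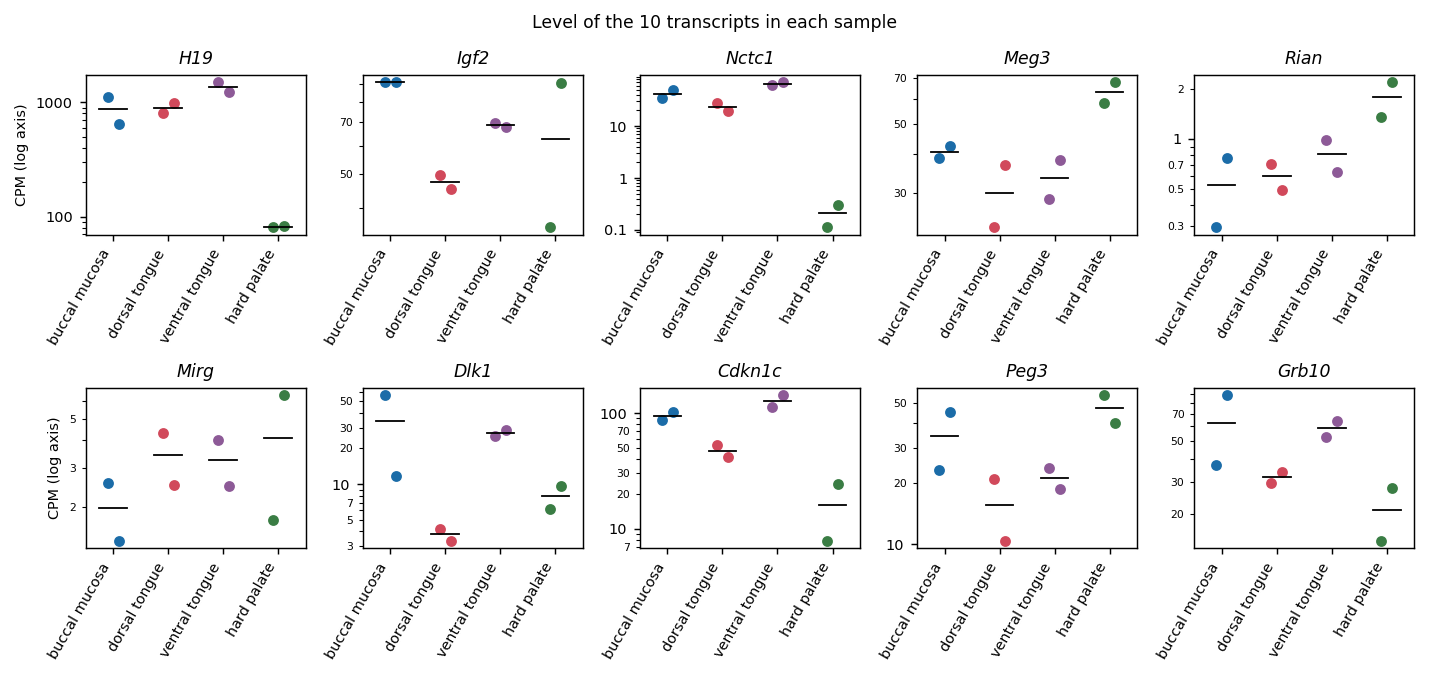
Level of each of the 10 transcripts in CPM (log axis, its range set for each panel) by site. Points are the 2 replicates and bars their mean. Both hard palate samples lie under all others for H19, Nctc1, Cdkn1c and Grb10 and above all others for Meg3 and Rian. Of these, Grb10, Meg3 and Rian were not called in hard palate. The share of all genes whose hard palate samples lie outside all others is not given here. At an unadjusted edgeR p under 0.05, 4870 of all 18609 genes tested differed in hard palate. The lack of overlap is therefore not read as a result about the members.

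In the fit over 18609 genes 3 of the 10 transcripts, H19, Nctc1 and Cdkn1c, were called lower in hard palate and none higher. Of all genes tested 9.76% were called in that comparison, 6.42% lower and 3.35% higher. Without buccal mucosa replicate 2 Dlk1 and Grb10 were called as well, and without hard palate replicate 1 Nctc1 alone was called. The number of all genes called also moved widely between fits that left out a sample, as given in the closing section. These gains and losses are therefore not read as a result about the members. The median log2 difference over the 10 was -0.81, beside -0.01 over all genes. The summed skeletal muscle markers were 243 to 635 CPM in hard palate, as given above, and 11 of the 15 were called lower there, with none of the 15 at 0 UMIs in any sample; their part in the levels of H19, Nctc1 and Cdkn1c was not tested. The list of satellite cell and myoblast genes, which shares Des with it, summed to 327 and 180 CPM in hard palate and to 1072 to 2993 CPM elsewhere. Adipocyte markers were also lower there, at 36.0 to 172 CPM against 444 to 4848 CPM, and endothelial markers were at 159 to 235.97 CPM against 236.2 to 551 CPM. Keratinocyte markers were higher there, at 18046 to 20970 CPM against 1085 to 16285 CPM. The part of these lists was not tested either.

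Among the other site comparisons, which share samples with the one of hard palate, Nctc1 was called higher in buccal mucosa (log2 2.54 ± 0.29, SE; edgeR adjusted p = 0.0426), where 0.72% of all genes were called. Nctc1 (3.56 ± 0.29; edgeR adjusted p = 0.0175) and H19 (1.89 ± 0.31; edgeR adjusted p = 0.0452) were called higher in ventral tongue, where 1.29% were. Since that mean is one of logs, the low hard palate values weigh on it: as arithmetic CPM, Nctc1 in buccal mucosa was 1.41 times the mean of the other 6 samples, with overlap, and in ventral tongue Nctc1 was 3.03 times and H19 2.21 times that mean, both without overlap. These calls in buccal mucosa and ventral tongue failed without either dorsal tongue replicate, either ventral tongue replicate or hard palate replicate 2, with adjusted p from 0.0678 to 0.574, and those of H19 in ventral tongue and Nctc1 in buccal mucosa also failed without hard palate replicate 1 (0.178 and 0.0934). No member was called in dorsal tongue, where 0.838% of genes were (0.043% lower), or between dorsal and ventral tongue, where 0.00537% were. At an unadjusted edgeR p under 0.05 H19, Nctc1 and Dlk1 differed in the former comparison, as did 1691 of all 18609 genes tested. DESeq2 called the same 3. In the latter Nctc1, Dlk1 and Cdkn1c passed unadjusted, as did 1013 of all 18609 genes, and DESeq2 called Dlk1. In the test of any difference among the sites H19 (adjusted p = 0.0186) and Nctc1 (0.0102) were called by edgeR, against 4.77% of all genes, and none was called in the fits without either replicate of dorsal tongue, hard palate or ventral tongue. More members were called without buccal mucosa replicate 1 or 2, and the number of all genes called also moved widely between such fits.

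The neighbours of H19 on chromosome 7 did not move as a block. Tnni2 and Tnnt3, fast skeletal troponins, the latter 59.5 kb from H19, had log2 differences of -7.08 and -6.51 in hard palate (edgeR adjusted p = 0.0110 and 0.0161). Lsp1, a leukocyte actin-binding protein between them, was at -0.55 and the mitochondrial ribosomal gene Mrpl23 at -1.41, and both missed the threshold. Beyond Igf2, Th (tyrosine hydroxylase) was at -3.79 with 2 to 157 UMIs per sample (adjusted p = 0.0881) and Ascl2 at -0.51, while Ins2 had at most 2 UMIs in a sample. On chromosome 12 Dio3, the thyroid hormone deiodinase at the far end of the imprinted cluster, was called higher in hard palate, with 6.14 and 14.5 CPM against 0.330 to 2.81 CPM elsewhere (log2 3.54, adjusted p = 0.0187). Begain was at -0.02, and Rtl1 had 0 to 23 UMIs. Between sections 11 to 20 and 1 to 10 Tnni2 (0.80), Lsp1 (0.57) and Mrpl23 (0.79) were called higher and Ascl2 (-0.40) lower, while Tnnt3 was at 0.71 (edgeR adjusted p = 0.0702).

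**Figure D2:**
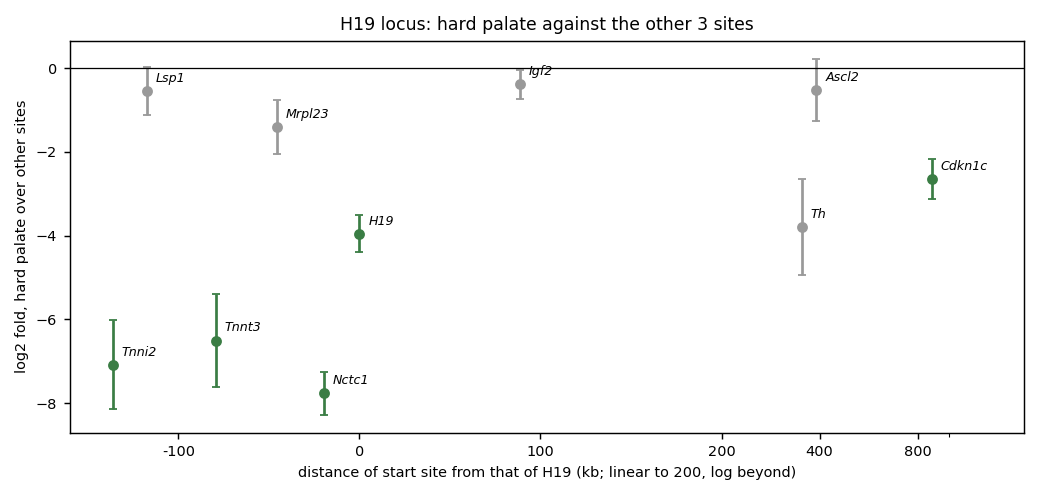
Log2 fold of hard palate over the mean of the other 3 sites (vertical axis, bars are the SE) for genes along the H19 region, by distance of their start from that of H19 in kb. Green points were called at adjusted p under 0.05 and grey ones were not; Nctc1 and H19, next to each other, were both called lower, while Lsp1, Mrpl23 and Igf2 between or beside called genes were not called.

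By section number H19 was higher toward section 20 in 7 of 8 samples. H19 was at 324 and 490 CPM in sections 1 to 5 of dorsal tongue and at 1208 and 1365 CPM in sections 16 to 20, and in ventral tongue it went from 842 and 951 to 1918 and 1382 CPM. Buccal mucosa replicate 2 went from 406 to 932 CPM, while replicate 1 stayed level at 1063 and 1110 CPM. Hard palate went from 60.7 to 146 CPM in replicate 1 and from 60.6 to 85.0 CPM in replicate 2. Sections 11 to 20 exceeded sections 1 to 10 in 7 of 8 samples, by up to 2.07-fold, with buccal mucosa replicate 1 at 0.974. H19 reached 2420 UMIs in a section, and UMI collisions compress its highest values. Summed over the 20 sections of a sample, estimated transcripts were up to 1.27 times the UMIs. Collisions weigh more on the sections with the most H19 UMIs than on that sum.

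Between sections 11 to 20 and sections 1 to 10 of the same samples, H19 rose by 0.64 ± 0.12 (log2, SE; edgeR adjusted p = 0.00233), Nctc1 by 1.04 ± 0.15 (adjusted p = 0.000623) and Igf2 by 0.74 ± 0.16 (adjusted p = 0.00441). Cdkn1c rose by 0.78 ± 0.08 (adjusted p = 0.000135) and Grb10 by 0.72 ± 0.12 (adjusted p = 0.00113), both higher in 8 of 8 samples, as was Igf2. Nctc1 was higher in 7 of 8, the exception being hard palate replicate 1 with its 2 UMIs. Of the 9 members tested these 5 were called, all higher, against 32.3% of all 15312 genes tested and 18.5% higher. The median over the 9 was 0.64, beside 0.02 over all genes. All 5 were called in each of the 15 alternative fits run for them. Meg3 (0.29, adjusted p = 0.148), Mirg (0.11), Dlk1 (-0.44, adjusted p = 0.129) and Peg3 (0.25, adjusted p = 0.118) were not called, and Rian did not pass the filter on low counts. Fitted with no filter it was at 0.37 (adjusted p = 0.657) and in counts of reads at 0.11 (adjusted p = 0.871).

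Other lists moved with section number as well. Keratinocyte markers were lower in sections 11 to 20 in 8 of 8 samples, by the least in hard palate replicate 1 (21029 against 20895 CPM), and 11 of 20 were called lower. Skeletal muscle markers were higher there in 7 of 8 samples, as in dorsal tongue (15577 and 13691 against 21755 and 22504 CPM), with hard palate replicate 1 at 710 against 542 CPM, and 9 of 15 were called higher. Endothelial markers were higher in 8 of 8, for example 117 against 326 CPM in hard palate replicate 2. The part of these lists in the rise of the 5 transcripts was not tested. With sections split by the keratinocyte score of each sample instead of by number, the log2 values were 0.63 for H19 (edgeR adjusted p = 0.0132) and 0.60 for Igf2 (adjusted p = 0.0350).

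**Figure D3:**
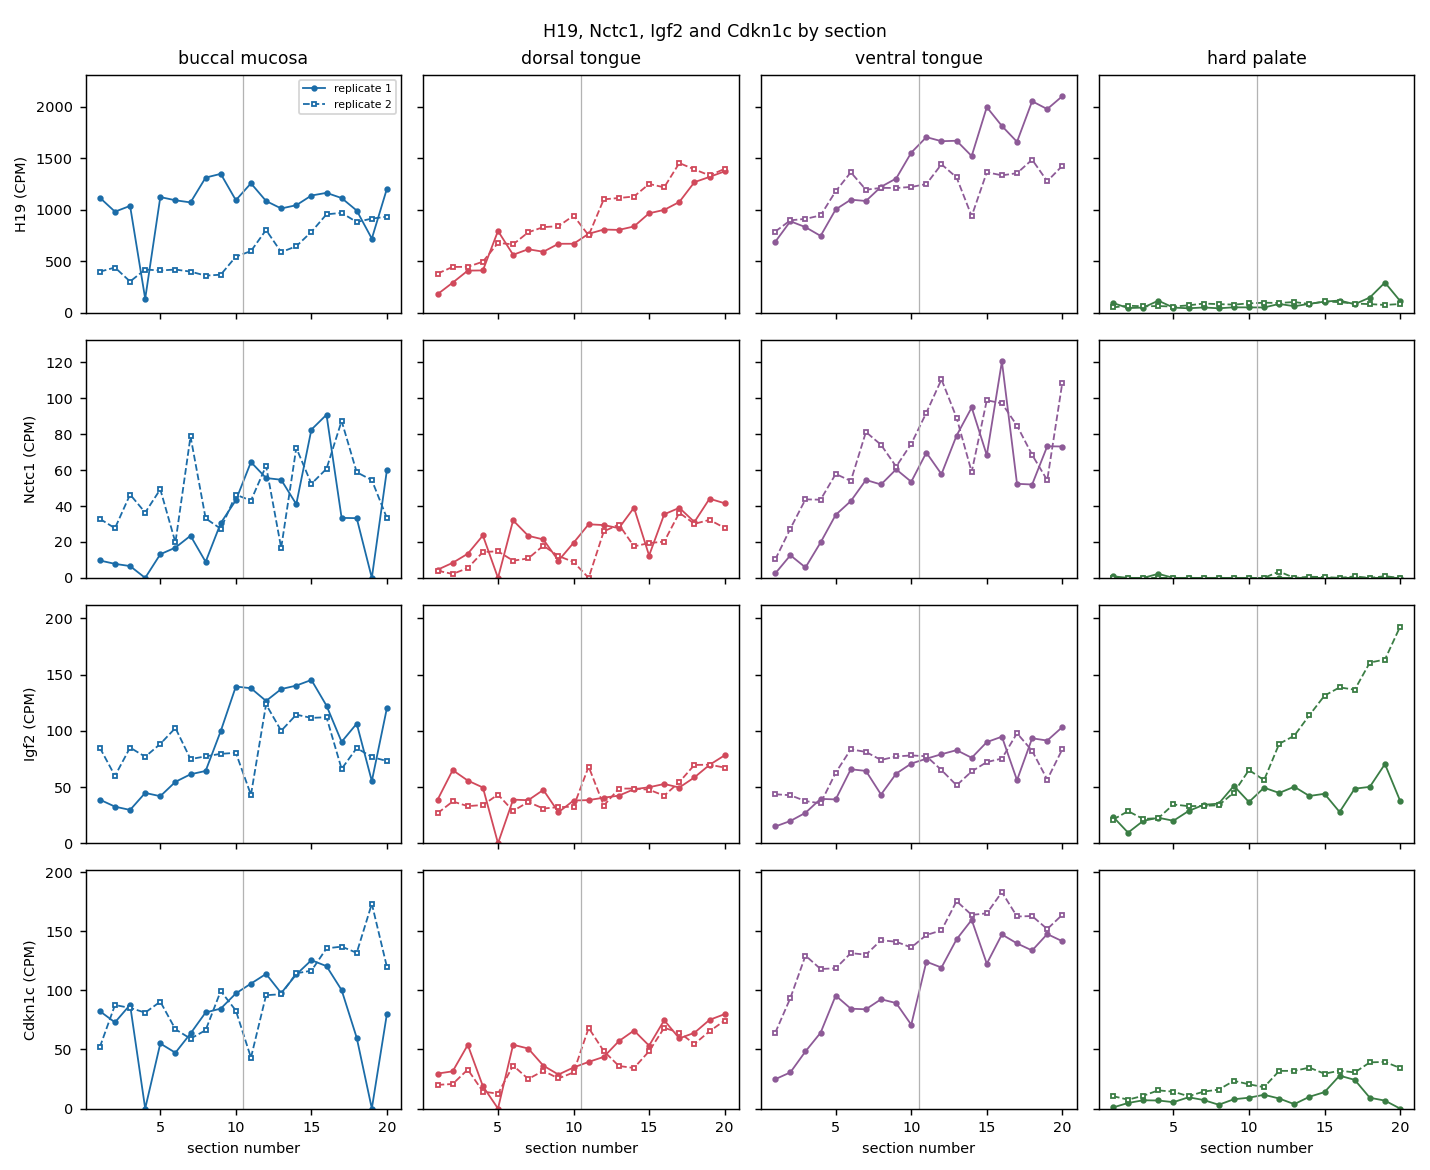
CPM of H19, Nctc1, Igf2 and Cdkn1c (rows) in each of the 20 sections of the 4 sites (columns); filled circles are replicate 1, open squares replicate 2, and the grey line parts sections 1 to 10 from 11 to 20. H19 and Nctc1 stay near the bottom axis in hard palate, while Igf2 in replicate 2 there climbs to 193 CPM at section 20.

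Igf2 and H19 parted by section in hard palate replicate 2. Igf2 went from 26.2 CPM in sections 1 to 5 to 159 CPM in sections 16 to 20, and H19 from 60.6 to 85.0 CPM. The UMIs of H19 per UMI of Igf2 there were 2.18 in sections 1 to 10 and 0.677 in sections 11 to 20, while hard palate replicate 1 had 2.18 and 2.38. In buccal mucosa the ratio fell from 16.5 in sections 1 to 10 to 8.29 in sections 11 to 20 in replicate 1. It rose from 5.13 to 8.28 in replicate 2. Dorsal tongue replicates 1 and 2 went from 11.2 to 19.2 and from 19.8 to 23.2. Ventral tongue replicates 1 and 2 went from 22.2 to 21.4 and from 17.6 to 18.4. In hard palate alone Igf2 was higher in sections 11 to 20 by 1.32 ± 0.27 (log2, SE; edgeR adjusted p = 0.0238) and Meg3 by 0.83 ± 0.19 (adjusted p = 0.0385). Without hard palate replicate 2 the adjusted p was 0.429 for Igf2 and 0.312 for Meg3. Without dorsal tongue replicate 1 or 2 it was 0.0543 and 0.0527 for Igf2 and 0.0824 and 0.0804 for Meg3, and Meg3 also missed without hard palate replicate 1 (0.251) or ventral tongue replicate 1 or 2 (0.0716 and 0.0723). With sections split by keratinocyte score the log2 values were 0.65 and 0.36 (adjusted p = 1 for both), and between sections 16 to 20 and 1 to 5 the adjusted p was 0.0546 and 0.1005.

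Dlk1 ran the other way at the sites where it was abundant. In buccal mucosa replicate 1 it was highest in section 2, at 105 CPM, and it went from 95.5 CPM in sections 1 to 5 to 10.6 CPM in sections 16 to 20. Its 0 UMIs in sections 19 and 20 there say little, since each of these sections held under 50000 UMIs of all genes. Replicate 2 went from 16.7 to 4.89 CPM. Ventral tongue went from 33.0 and 43.5 CPM to 20.4 and 19.8 CPM. Dorsal tongue (2.42 and 2.37 to 6.62 and 3.54 CPM) and hard palate (5.65 and 7.53 to 8.84 and 11.3 CPM) went upward at low levels. All 4 samples of buccal mucosa and ventral tongue were thus lower in sections 11 to 20. All 4 of dorsal tongue and hard palate were higher, but dorsal tongue replicate 2, with 68 UMIs of Dlk1, was nearly level. Within the site the difference of sections 11 to 20 from 1 to 10 was -1.38 ± 0.20 (log2, SE; edgeR adjusted p = 0.0118) in buccal mucosa and -0.63 ± 0.17 (adjusted p = 0.0269) in ventral tongue. The former missed the threshold without buccal mucosa replicate 1 (0.198) and between sections 16 to 20 and 1 to 5 (0.0589), and the latter without either ventral tongue replicate (0.270 and 0.205), by DESeq2 (0.0711) and with the keratinocyte split (0.0697). The test of whether that difference depends on the site missed the threshold for Dlk1 (edgeR adjusted p = 0.0748), which was called by DESeq2 (adjusted p = 0.0129) and in the edgeR fit without buccal mucosa replicate 2 (adjusted p = 0.0152). That test called no member by edgeR, against 0.359% of all genes. Dlk1, Meg3 and Peg3 passed at an unadjusted edgeR p under 0.05, as did 2523 of all 15312 genes tested.

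Within single sites Cdkn1c was the one member called higher in sections 11 to 20 at all 4, by 0.69 in buccal mucosa, 0.80 in dorsal tongue, 0.91 in hard palate and 0.75 in ventral tongue (log2; edgeR adjusted p = 0.0349, 0.0204, 0.0262 and 0.0102). The members called were 3 of 9 in buccal mucosa (7.49% of all genes; 5.15% higher, 2.34% lower) and 4 in dorsal tongue (7.93%; 5.53% higher, 2.4% lower). They were 3 in hard palate (6.41%; 3.66% higher, 2.76% lower) and 3 in ventral tongue (22.5%; 13% higher, 9.51% lower). Peg3 was among those of dorsal tongue (0.78, adjusted p = 0.0263), where it went from 11.3 and 6.17 CPM in sections 1 to 5 to 29.3 and 15.7 CPM in sections 16 to 20. None of the 13 calls within a site held in all 8 fits that left out 1 sample.

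**Figure D4:**
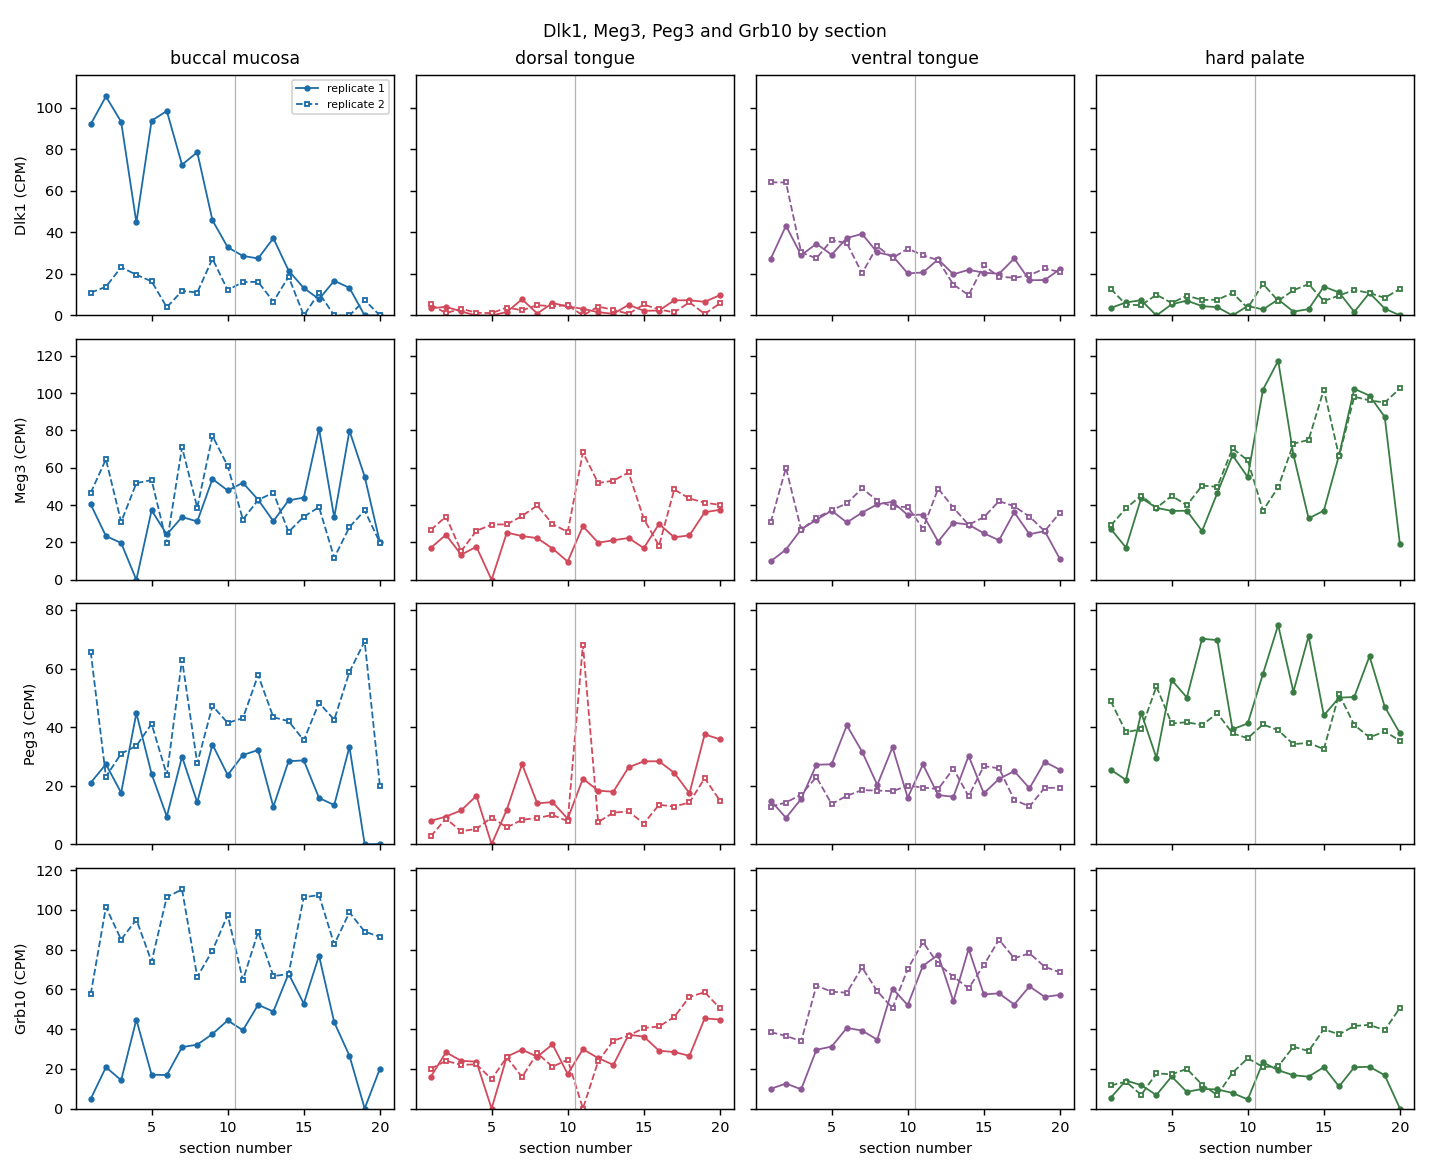
CPM of Dlk1, Meg3, Peg3 and Grb10 (rows) by section at each site, drawn as for the chromosome 7 genes. Dlk1 falls along the sections of buccal mucosa replicate 1 and ventral tongue, and Meg3 climbs in hard palate. The spikes and zeros at section 5 of dorsal tongue replicate 1 and section 11 of replicate 2 are sections of few UMIs. So are sections 4, 19 and 20 of buccal mucosa replicate 1.

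**Figure D5:**
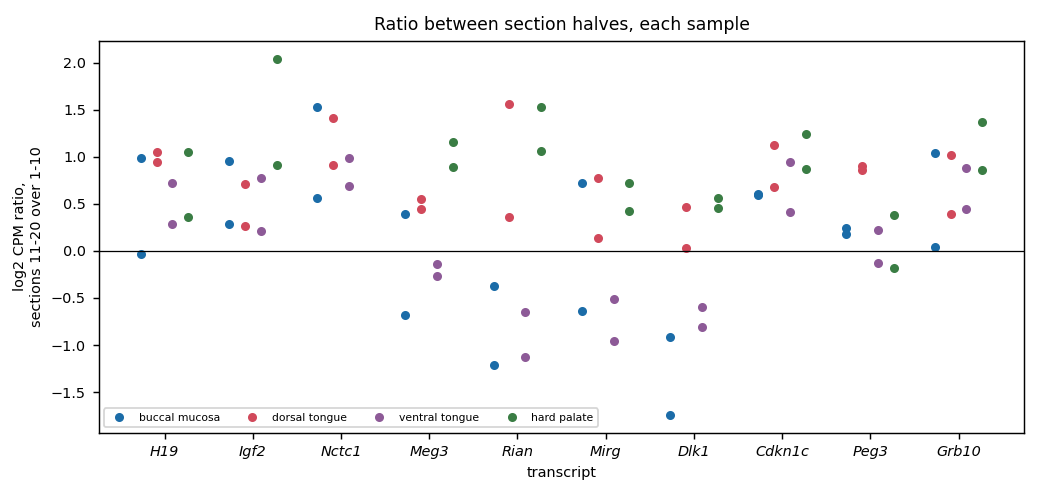
Log2 ratio of CPM in sections 11 to 20 over sections 1 to 10 (vertical axis) for each transcript, 1 point per sample coloured by site; no point is drawn for Nctc1 in hard palate, where 1 of the section ranges held 0 UMIs. Igf2, Cdkn1c and Grb10 lie above 0 in every sample, and Dlk1 and Rian lie on both sides by site.

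Over the 160 sections, H19 was most alike in log2(CPM + 1) to Smtnl1, Cryab and Srl (Pearson r = 0.94, 0.94 and 0.93) and Nctc1 to Kcnj11, Fbxo40 and Tmod4 (0.97, 0.96 and 0.96), among 9953 genes of at least 10 CPM. Cdkn1c was most alike to Gyg, Fxyd6 and Aldh1a1 (0.90, 0.86 and 0.86) and Grb10 to Podxl, Abca8a and Chpt1 (0.90, 0.90 and 0.86). Igf2 matched its overlapping model Gm49394, then Hbb-bs and Vim (0.81 and 0.81). The matches of Peg3 (Phf20l1, Lrrc58 and Srsf5, 0.78 to 0.72), Meg3 (Flna, Dennd1a and Taok2, 0.75 to 0.74) and Dlk1 (Snx31, Otx1 and Klc1, 0.69 to 0.65) were looser. Within the set H19 went with Nctc1 (0.88) and Cdkn1c (0.72), far less with Igf2 (0.25), and against Peg3 (-0.44) and Meg3 (-0.26). Sections of a sample share a block and a library, and the site levels above enter these values, so they are descriptions.

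Of 40 other imprinted genes 33 were tested in hard palate, where 3 were called lower and 3 higher, beside 6.42% and 3.35% of all genes. Lower were Zdbf2 (log2 -3.63), Mest, a hydrolase-fold protein of the paternal allele (-2.90), and Asb4 (-2.76), all 3 at 0.282 to 1.21 CPM there against 2.07 to 10.7 CPM elsewhere. Higher were Dio3 and, named here after their values were seen, the antisense noncoding RNAs Kcnq1ot1 (65.7 and 51.8 CPM against 16.2 to 23.3 CPM elsewhere, log2 1.21) and Airn (125 and 123 CPM against 35.3 to 66.3 CPM, log2 1.02). The sources used here do not state whether counting used strand, so reads of these 2 antisense genes and of their partners may be mixed. Between sections 11 to 20 and 1 to 10, 8 of 28 were higher and 3 lower, beside 18.5% and 13.8% of all genes, with Zdbf2 at 1.22, Zim1 at 1.09, Asb4 at 0.94 and Slc38a4, an amino acid transporter, at 0.88. The median over the list was -0.51 in hard palate and 0.23 by section. Of 20 genes of IGF signalling 18 were tested. In hard palate the receptor Igf1r was called higher (140 and 134 CPM against 35.7 to 64.1 CPM, log2 1.01) and the binding protein Igfbp5 lower, 1 of 18 each way beside 3.35% and 6.42% of all genes (141 and 221 CPM against 511 to 938 CPM, log2 -2.21). By section 3 rose, among them the docking protein Irs1 (0.84) and Igfbp5 (0.73), and 2 fell, Igfals by 0.77 and Igfbp2 by 0.52. Those 3 and 2 of 18 are near the 18.5% and 13.8% of all genes called higher and lower.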

How the data were processed

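Tomo-seq libraries of 160 sections from 8 samples were used. Per the labels' protocols, RNA of each section was made into CEL-seq2 libraries and sequenced on a NextSeq500 with 75 bp paired-end reads. The submitters' processing notes list Trim Galore 0.6.10, STAR 2.7.9a and GRCm38. The sources used here name no counting program. The authors deposited 3 tables per sample: UMI counts, read counts, and estimated counts of transcripts, which equal the UMI counts corrected for UMI collisions to within 0.0122%. UMI counts were used unless stated. Depth was 1.91 to 2.74 reads per UMI.

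UMIs were summed per sample, or over sections 1 to 10 and 11 to 20, filtered with filterByExpr, scaled by TMM and tested over all genes with edgeR 4.0.16 (quasi-likelihood, R 4.3.3), and called below a Benjamini-Hochberg adjusted p of 0.05. Entries that name several genes (413) stayed in library sizes and in the fits, where they count as tested entries. Each site was set against the log-scale mean of the other 3; the comparison by section had the sample as block. Each SE of an edgeR log2 value was derived as its absolute size divided by the square root of its F statistic. It is not an estimate that edgeR reports. The edgeR steps were also run on counts simulated with a fixed dispersion. That simulation does not copy the spread between these samples, and no result here rests on it. Alternatives were RLE scaling, no filter, DESeq2 1.42.0, counts of reads, estimated counts rounded to whole numbers, a replicate block, sections 16 to 20 against 1 to 5, a keratinocyte split and leaving out each sample. A fit without a sample assumes that the lone replicate varies like the other groups.

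Members, marker lists and other lists were chosen with earlier results of these data known. All 10 members are named. For each member of at least 5 CPM the 3 most alike genes are named, and locus neighbours are all named. Of the other imprinted and IGF lists up to 4 genes are named per contrast, by size of log2 fold among those called. Of the lists, Mkrn3, Mcts2, Peg13 and Igfbp1 had no usable entry. The lists of nerve, smooth muscle, bone and fibroblast markers are given as summed levels in the closing section.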

Additional observations from a re-analysis of the deposited data

Results flagged for a closer look

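Rian had ratios of opposite sign between sites. It did not pass the filter on low counts in the edgeR fit by section, so the difference was not tested there. With no filter the test of a dependence on site gave an adjusted p of 0.457, and in counts of reads 0.231, so it was called in neither. The log2 ratio of sections 11 to 20 over sections 1 to 10 was -1.22 and -0.37 in the buccal mucosa samples and -0.65 and -1.13 in ventral tongue, against 1.56 and 0.36 in dorsal tongue and 1.06 and 1.52 in hard palate. It rests on 5 to 58 UMIs per sample.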

How the results depend on the processing

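The 24 single-transcript calls were each set against 14 or 15 alternative fits, many of them the same fits. Of the 354 pairs of call and fit, 255 kept the call, 99 kept the direction without it and 0 reversed. The calls of H19 and Nctc1 for any difference among the sites are not among the 24. Among the 10 transcripts the number called moved as follows. For any difference among the sites it was 2, 5 with no filter, 4 by DESeq2, 1 with the replicate block and 0 to 5 leaving out a sample. For hard palate it was 3, 5 with no filter and 1 to 5 leaving out a sample. For ventral tongue it was 2, 4 with no filter, 1 in reads, 1 in estimated transcripts, 1 with the replicate block and 0 to 4 leaving out a sample. For buccal mucosa it was 1, 2 with no filter, 2 by DESeq2, 0 with the replicate block and 0 to 2 leaving out a sample. For dorsal tongue it was 0, 2 with no filter, 3 by DESeq2 and 0 to 3 leaving out a sample. Between dorsal and ventral tongue it was 0, 1 with no filter, 1 by DESeq2 and 0 to 1 leaving out a sample. For the dependence of the section difference on the site it was 0, 3 with no filter, 1 by DESeq2 and 0 to 2 leaving out a sample. Between sections 11 to 20 and 1 to 10 it was 5, and 5 to 7 leaving out a sample. The cause was not tested.

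Over all genes, 887 were called for any difference among the sites, 4522 with no filter, 3294 by DESeq2, 362 with the replicate block and 0 to 5684 leaving out a sample. For hard palate it was 1817, 3728 with no filter, 3109 by DESeq2 and 318 to 5526 leaving out a sample. For buccal mucosa it was 134, with 2584, 1439, 2 with the block and 0 to 5093. For dorsal tongue it was 156, with 1282, 539, 83 and 1 to 1801, and for ventral tongue 240, with 1321, 855, 48 and 0 to 1320. Between the tongue faces it was 1, with 377, 143, 0 and 0 to 123. For the dependence on site it was 55, with 1958, 411 and 4 to 861 leaving out a sample, 99 with RLE, 29 in reads, 2 for sections 16 to 20 against 1 to 5 and 1 with the keratinocyte split. Deviations of same-numbered samples correlated at 0.530 between dorsal and ventral tongue and from -0.273 to 0.0999 between the other sites. The numbers were therefore not taken to pair the samples over all sites, and whether the tongue samples of a number share an animal is not given in the labels. RLE scaling shifted the median of all genes by under 0.1 log2 units in every comparison it was run for. Nctc1, Rian and Mirg are limited by depth, where 3 UMIs come to 0.114 to 0.383 CPM.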

Other observations

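Cell type lists other than muscle also differed by sample. Bone and cartilage markers summed to 55.2 and 73.5 CPM in hard palate and 11.02 to 29.2 CPM elsewhere. Schwann cell and nerve markers summed to 2671 CPM in buccal mucosa replicate 2 and 289 to 867 CPM in the other 7 samples. Smooth muscle and pericyte markers ran from 344 to 1918 CPM and fibroblast markers from 3765 to 7886 CPM, both highest in buccal mucosa replicate 2.

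The antisense transcript Igf2os had 2 to 8 UMIs per sample. H19 in hard palate lay 12.8 times under the mean of the other samples in UMIs, 13.2 times in reads and 15.1 times in estimated transcripts.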
